A study of Mus musculus with 16 samples.

Results

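The genes described here are 9 enzymes and regulators that handle arginine, ornithine and polyamines in cultured mouse cardiac fibroblasts: Ass1, Arg1, Arg2, Oat, Odc1, Azin1, Srm, Sms and Sat1. They were taken by symbol from the table of read counts, where all 9 were found among 55414 gene identifiers, and 8 of them (all but Arg2) passed the filter on low counts that left 15285 genes for testing. Arg1 lies on chromosome 10, Arg2 and Odc1 on 12, Oat on 7, Ass1 on 2, Srm on 4, Azin1 on 15 and Sms and Sat1 on X. The RNA came from 16 libraries in 4 groups of 4. TGF-beta-treated Cre cells carried a Cre adenovirus and received transforming growth factor beta (TGF-beta), the growth factor that turns fibroblasts into contractile myofibroblasts, and TGF-beta-treated GFP cells carried a green fluorescent protein (GFP) adenovirus and received the same factor. Cre cells and GFP cells carried the same viruses without TGF-beta. Cre recombinase was meant to delete exon 2 of Has2, a hyaluronan synthase, from a floxed allele that the treatment protocol gives to the mice behind all 4 groups, while the genotype label reads wild type C57BL/6J; the labels do not settle this. The cells, at passage 2, spent 24 h without serum and 5 h with virus, and RNA was taken 48 h into the stimulation. The protocol gives 20 ng/mL for basic fibroblast growth factor and TGF-beta together and does not say whether fibroblast growth factor also went to the groups lacking TGF-beta, so its share in any difference with TGF-beta cannot be told apart. The age of the mice was not given in the labels. The libraries share a preparation code by replicate number, with preparations 1 and 4 from male and 2 and 3 from female cells, and each preparation gave 1 library to each group.

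Arginine enters the urea cycle and its side branches at arginase, which splits it into urea and ornithine. Argininosuccinate synthase works in the opposite direction, helping to rebuild arginine from citrulline. Ornithine can then go to ornithine aminotransferase, on the way to glutamate and proline, or to ornithine decarboxylase, which makes the polyamine putrescine; spermidine and spermine follow by adding aminopropyl groups, and an acetyltransferase starts their breakdown or export. Proline is a main building block of collagen and polyamines serve growth and translation, so both branches are of interest in fibroblasts that make matrix.

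Depth was 17.9 to 48.7 M counts per library. Levels are given as counts per M counts of the library (CPM), scaled with TMM factors, and log2 differences as fitted value ± standard error (SE). The 8 fibroblast markers summed to 12307 to 36690.2 CPM per library, against 411 to 1636 CPM for 12 macrophage markers, 13.3 to 45.0 CPM for 6 endothelial markers, 3.12 to 23.5 CPM for 6 cardiomyocyte markers and at most 0.585 CPM for 6 neutrophil markers. Preparation 4 stood apart: in each group it had the lowest fibroblast sum (12307 to 15740.3 CPM) and the highest macrophage sum (936 to 1636 CPM). Values of preparation 4 are therefore given beside the results. The targeted gene Has2 averaged 16.5 ± 6.32 CPM (SD, n = 4) in TGF-beta-treated Cre cells and 16.8 ± 5.67 CPM in TGF-beta-treated GFP cells, and 14.7 ± 1.38 CPM in Cre cells and 18.7 ± 3.27 CPM in GFP cells. These counts cover the whole gene, so they do not check the loss of exon 2. In bulk RNA, fewer cells of a type and less RNA per cell cannot be told apart.

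The 9 genes were chosen by their place in 1 pathway with earlier results of these libraries known, among them the large TGF-beta difference of Arg1 in GFP cells; which other values entered the choice is not recorded. All differences of the 9 genes with TGF-beta are therefore given as a description, with no p-value. Counts of these genes called by the fit over all genes are printed beside the share called among all genes, and nothing is drawn from them. The Cre comparisons are tested, with a limit for Arg1. The GFP libraries behind its known TGF-beta difference are also the reference in these comparisons. The p-values and intervals of Arg1 there, and those of the summed arginase level, are therefore a description.

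Promoter sequences are shown for 4 of the genes, to place the bases upstream of 3 genes that were higher with TGF-beta (Ass1, Odc1, Sat1) beside those of the 1 that was lower (Oat). RefSeq (build GRCm38.p6) held promoters for 5 of the 9 genes, the fifth being Sms, and Arg1, Arg2, Azin1 and Srm are named only. Each line gives the 250 bases before the transcription start, 5′ to 3′ on the gene's strand, with matches on either strand to the 5 motifs spelled out after the sequences in capitals. The windows are chr2:31470020-31470269 (plus strand) for Ass1, chr12:17544623-17544872 (plus strand) for Odc1, chrX:155216450-155216699 (minus strand) for Sat1 and chr7:132576399-132576648 (minus strand) for Oat.
Ass1: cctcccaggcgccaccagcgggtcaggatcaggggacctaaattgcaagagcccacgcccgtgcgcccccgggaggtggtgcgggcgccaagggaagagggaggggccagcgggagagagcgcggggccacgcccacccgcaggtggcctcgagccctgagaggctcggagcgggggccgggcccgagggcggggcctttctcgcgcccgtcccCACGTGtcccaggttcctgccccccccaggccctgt
Odc1: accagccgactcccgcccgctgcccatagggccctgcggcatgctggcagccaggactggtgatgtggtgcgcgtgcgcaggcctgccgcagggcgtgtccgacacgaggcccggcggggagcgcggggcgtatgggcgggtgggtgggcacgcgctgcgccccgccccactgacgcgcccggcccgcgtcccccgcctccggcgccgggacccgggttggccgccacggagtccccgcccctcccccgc
Sat1: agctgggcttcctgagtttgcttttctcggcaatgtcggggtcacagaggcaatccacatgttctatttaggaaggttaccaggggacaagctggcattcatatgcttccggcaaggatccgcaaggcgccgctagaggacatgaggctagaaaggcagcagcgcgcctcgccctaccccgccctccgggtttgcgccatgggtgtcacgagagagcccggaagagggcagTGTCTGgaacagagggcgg
Oat: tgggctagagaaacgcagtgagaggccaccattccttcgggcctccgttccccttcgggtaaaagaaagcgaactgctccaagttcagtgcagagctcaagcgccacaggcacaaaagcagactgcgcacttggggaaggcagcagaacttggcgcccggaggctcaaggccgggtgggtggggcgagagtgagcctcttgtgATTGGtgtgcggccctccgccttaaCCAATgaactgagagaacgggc
Ass1 holds 1 CACGTG, the E-box letters that MYC and related factors can bind, which 6.02% of 32851 promoter windows hold. Of the 2 Sms windows, not printed here, 1 also holds a CACGTG and a CCAAT, and the other holds neither. Sat1 holds 1 CAGACA on the opposite strand (TGTCTG), letters that occur in SMAD binding elements, as do 17.1% of windows. Oat holds 2 CCAAT boxes, 1 on each strand, and 33.8% of windows hold at least 1. The Odc1 window holds 0 matches to the 5 motifs. TGANTCA, an AP-1 motif, occurs in 6.75% of windows, and TGATGNAA, letters that occur in ATF4 composite elements, in 3.45%; neither is in the 4 windows. No pair of these 5 motifs overlapped in the windows shown. A match is a description of letters and not a binding site.

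The 2 arginase genes were far apart in level. Arg1, the arginase of the cytosol, was at 12.1, 19.8, 13.1 and 42.7 CPM in preparations 1 to 4 of TGF-beta-treated Cre cells and at 0.392, 0.926, 0.368 and 1.01 CPM in Cre cells. Arg1 was at 15.1, 21.5, 13.8 and 54.6 CPM in TGF-beta-treated GFP cells, against 0.150, 0.612, 0.372 and 0.811 CPM in GFP cells. Every library with TGF-beta lay above every library without it, and preparation 4 was the highest of its group in all 4 groups. The mean level of Arg1 was 32.6 times as high in TGF-beta-treated Cre cells as in Cre cells, and 54.0 times as high in TGF-beta-treated GFP cells as in GFP cells. The fitted log2 difference was 4.96 ± 0.61 under the Cre virus and 5.77 ± 0.66 under the GFP virus. The low groups rest on 8 to 45 counts per library in Cre cells and 4 to 17 in GFP cells, which limits how exactly the fold is known. Without preparation 4 the differences were 4.64 and 5.45.

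Arg1 is also a gene of alternatively activated macrophages, so the macrophage markers are set beside it. In every preparation and under both viruses the summed macrophage markers were lower with TGF-beta than without, at 411 to 1021 CPM in TGF-beta-treated Cre cells and 618 to 1636 CPM in Cre cells. They were at 436 to 936 CPM in TGF-beta-treated GFP cells and 719.9 to 1525 CPM in GFP cells. Of the 12 markers 10 were tested, and with TGF-beta 3 of them fell and 0 rose under each virus (9 fell in Cre cells and 10 in GFP cells with the preparation as a block). Mrc1, the mannose receptor of the same macrophage state, ranged over 2.24 to 5.39 CPM in TGF-beta-treated Cre cells and 23.1 to 41.4 CPM in Cre cells. It ranged over 2.05 to 5.21 CPM in TGF-beta-treated GFP cells and 32.1 to 45.7 CPM in GFP cells. Retnla and Chil3, markers of the same state, were at 0 counts in all 16 libraries. The other marker lists moved with TGF-beta too. Without the block, 5 of 8 fibroblast markers and 3 of 6 endothelial markers fell under each virus. So did 1 of 3 tested cardiomyocyte markers in Cre cells and 2 of 3 in GFP cells, and 0 of these markers rose. With the block, 1 fibroblast marker rose and 5 fell in Cre cells, and 2 rose and 5 fell in GFP cells. With it 4 endothelial markers fell under each virus, and 2 cardiomyocyte markers in Cre cells and 3 in GFP cells. Over all genes 16.3% were called lower in Cre cells and 15.3% in GFP cells without the block, and 27.3% and 26.5% with it. The endothelial markers summed to 13.3 to 20.1 CPM in TGF-beta-treated Cre cells and 30.0 to 43.6 CPM in Cre cells, and to 14.0 to 24.3 CPM in TGF-beta-treated GFP cells and 31.6 to 45.0 CPM in GFP cells. The cardiomyocyte markers summed to 3.15 to 12.3 CPM in TGF-beta-treated Cre cells and 8.01 to 23.5 CPM in Cre cells, and to 3.12 to 6.40 CPM in TGF-beta-treated GFP cells and 5.17 to 16.7 CPM in GFP cells. The summed fibroblast markers were higher with TGF-beta in every preparation under both viruses. They were at 13115 to 32732 CPM in TGF-beta-treated Cre cells and 12307 to 24373 CPM in Cre cells. In TGF-beta-treated GFP cells they were at 15740.3 to 36690.2 CPM, against 13238 to 26069 CPM in GFP cells. The part of these lists in the differences of the 9 genes was not tested. Preparation 4 had both the highest Arg1 and the highest macrophage sum in each group, and the part of one in the other was not tested.

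Arg2, the mitochondrial arginase, had 10 counts over the 4 libraries of TGF-beta-treated Cre cells and 2 counts in each of the other 3 groups. It had 0 counts in 8 libraries, and 8 of the 10 counts came from preparation 4. Arg2 was not tested, and no difference is drawn from these counts. It lies opposite Vti1b, a gene with 39726 counts, and how the counting treated strand was not given in the sources used here; even these few counts are uncertain. Per kb of exon, Arg1 and Arg2 together came to 9.91 ± 6.49 CPM in TGF-beta-treated Cre cells and 11.8 ± 8.63 CPM in TGF-beta-treated GFP cells (SD, n = 4). Without TGF-beta the summed arginase level was 0.310 ± 0.162 CPM per kb in Cre cells and 0.233 ± 0.146 CPM per kb in GFP cells. The exact two-sided permutation test of Cre against GFP gave p = 0.571 with TGF-beta and p = 0.486 without it, where 4 against 4 libraries can give 0.0286 at the least. This test does not use the shared preparations. Both p-values are a description, since the sum is mostly Arg1, picked with its difference between these GFP groups known. Within preparations 1 to 4 the summed level with TGF-beta was 5.49, 8.89, 5.89 and 19.4 CPM per kb in Cre cells and 6.78, 9.68, 6.20 and 24.5 CPM per kb in GFP cells, lower in the Cre library in each of the 4. Without TGF-beta it was 0.176, 0.430, 0.165 and 0.469 CPM per kb in Cre cells and 0.0675, 0.300, 0.167 and 0.399 CPM per kb in GFP cells, with the Cre library above its partner in 3 of 4.

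**Figure D1:**
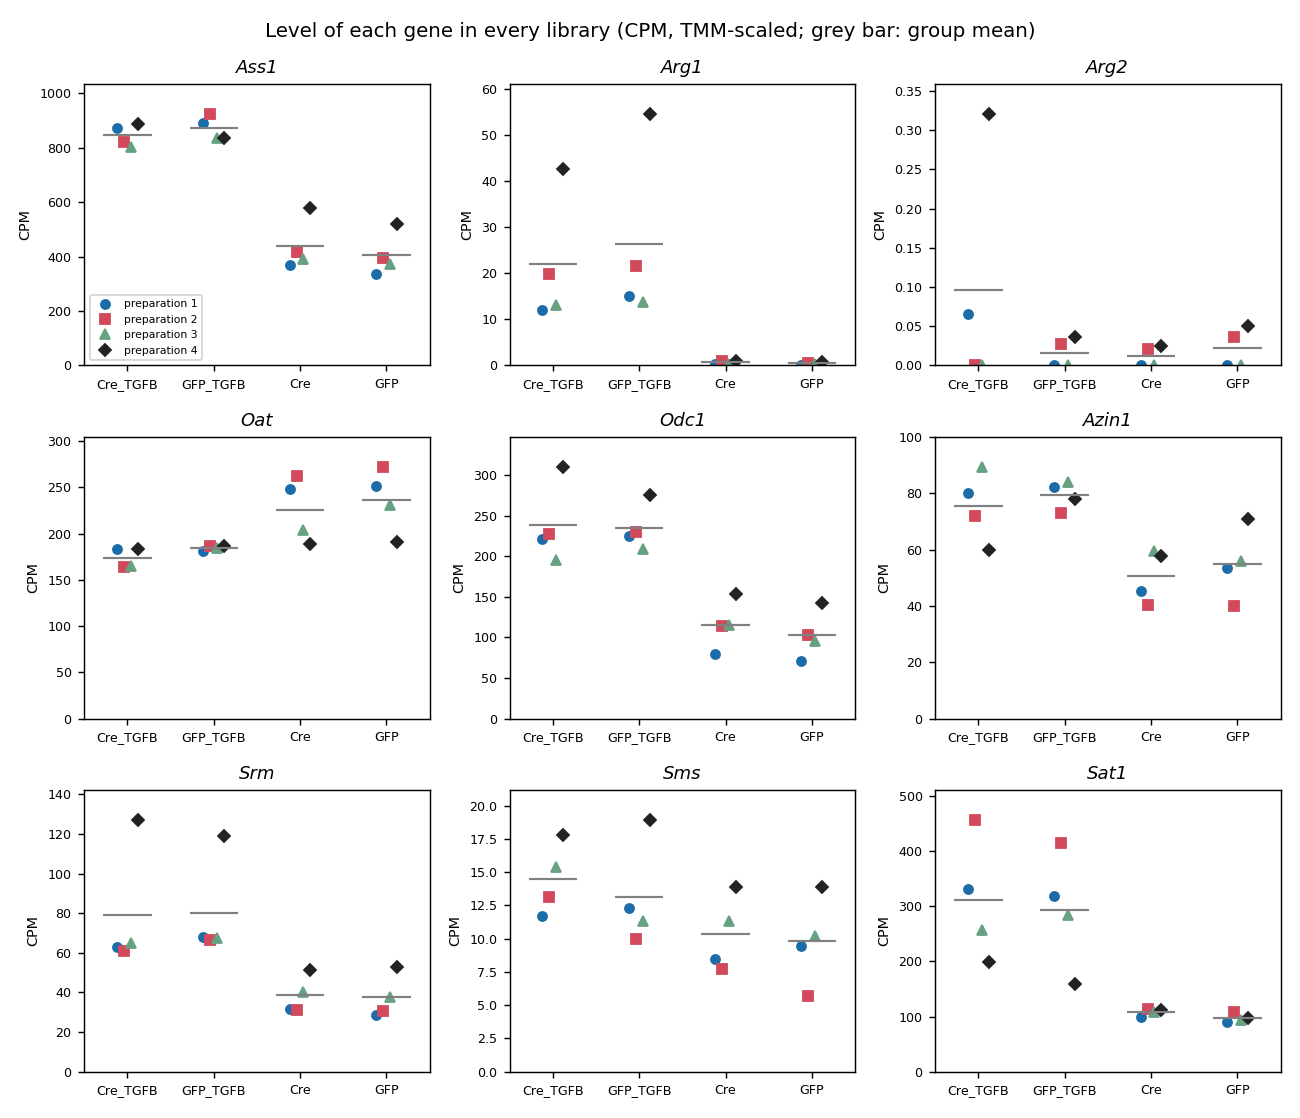
Level of each of the 9 genes (y axis, CPM on a linear scale from 0) in the 16 libraries by group (x axis), with 1 symbol per preparation and a grey bar at the group mean of 4 libraries. Arg1 lay between 12.1 and 54.6 CPM in the 8 libraries with TGF-beta and at or below 1.01 CPM in the 8 without, while Arg2 did not exceed 0.321 CPM in any library.

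Ass1, which joins citrulline and aspartate on the way to arginine, was the most abundant of the 9 genes. It was at 872, 820.0, 803 and 889 CPM in preparations 1 to 4 of TGF-beta-treated Cre cells and at 369, 418, 391 and 577 CPM in Cre cells. Ass1 was at 893, 925, 837 and 837 CPM in TGF-beta-treated GFP cells, against 337, 393, 374 and 518 CPM in GFP cells. The groups did not overlap, and preparation 4 was highest among the libraries without TGF-beta under both viruses. The log2 difference was 0.95 ± 0.15 under the Cre virus and 1.11 ± 0.15 under the GFP virus, close to a doubling. Within preparation 4 it was 0.62 in Cre cells and 0.69 in GFP cells, below the 0.97 to 1.24 and 1.16 to 1.41 of the other 3 preparations.

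Ornithine has competing outlets, and the genes of these outlets differed in direction. Oat, the aminotransferase towards glutamate and proline, was at 183, 164, 165 and 183 CPM in preparations 1 to 4 of TGF-beta-treated Cre cells and at 248, 262, 204 and 189 CPM in Cre cells. Oat was at 181, 187, 184 and 187 CPM in TGF-beta-treated GFP cells, against 251, 272, 231 and 191 CPM in GFP cells. Each library with TGF-beta lay below each without it, but by little in preparation 4, where the log2 difference was -0.05 in Cre cells and -0.03 in GFP cells. The fitted difference was -0.38 ± 0.12 in Cre cells and -0.36 ± 0.12 in GFP cells, and without preparation 4 it was -0.47 and -0.46. Part of the Oat locus overlaps Fgfr2, which had 1720 counts against 94503 for Oat.

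Odc1, ornithine decarboxylase, the first and tightly regulated step of polyamine synthesis, was at 221, 228, 196 and 310.1 CPM in preparations 1 to 4 of TGF-beta-treated Cre cells and at 80.0, 114, 115 and 153 CPM in Cre cells. Odc1 was at 225, 229.7, 209 and 276 CPM in TGF-beta-treated GFP cells, against 70.7, 103, 96.0 and 143 CPM in GFP cells. Groups with and without TGF-beta did not overlap, and preparation 4 was the highest of each group. The log2 difference was 1.05 ± 0.22 under the Cre virus and 1.19 ± 0.22 under the GFP virus. Per kb of exon, the level of Odc1 relative to that of Oat was 0.949 ± 0.162 in TGF-beta-treated Cre cells and 0.369 ± 0.144 in Cre cells (SD, n = 4). In TGF-beta-treated GFP cells this ratio was 0.881 ± 0.0994, against 0.316 ± 0.142 in GFP cells. The lowest ratio with TGF-beta was 0.787 and the highest without it was 0.559, so the 8 libraries with TGF-beta all had the higher Odc1 share. The ratios use joined exons of 3405 bases for Odc1 and 2360 for Oat. The longest transcripts have 2208 and 2152 bases. They would raise every ratio by the same factor and leave the order of the libraries as it is. The values are RNA levels, and antizyme and its inhibitor set much of the Odc1 enzyme's amount after translation.

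Azin1, the antizyme inhibitor, is a catalytically inactive relative of ornithine decarboxylase that keeps antizyme from marking the enzyme for degradation. It was at 80.1, 71.8, 89.3 and 59.9 CPM in preparations 1 to 4 of TGF-beta-treated Cre cells and at 45.2, 40.2, 59.6 and 57.6 CPM in Cre cells. Azin1 was at 82.1, 72.9, 83.9 and 77.9 CPM in TGF-beta-treated GFP cells, against 53.6, 40.0, 55.8 and 70.7 CPM in GFP cells. The groups just failed to overlap, with 59.9 CPM as the lowest value in TGF-beta-treated Cre cells and 59.6 CPM as the highest in Cre cells. The log2 difference was 0.57 ± 0.17 in Cre cells and 0.53 ± 0.17 in GFP cells. It was 0.06 and 0.14 within preparation 4, and between 0.58 and 0.87 in the other preparations under both viruses.

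The aminopropyl transferases follow. Srm, spermidine synthase, was at 63.2, 60.7, 65.0 and 127 CPM in preparations 1 to 4 of TGF-beta-treated Cre cells and at 31.7, 31.3, 40.2 and 51.5 CPM in Cre cells. Srm was at 67.8, 66.4, 67.7 and 119 CPM in TGF-beta-treated GFP cells, against 28.7, 30.7, 37.7 and 53.0 CPM in GFP cells. The groups did not overlap, and preparation 4 was far above the other 3 with TGF-beta, although its own log2 difference (1.30 in Cre cells, 1.16 in GFP cells) was close to the fitted 1.03 ± 0.28 and 1.10 ± 0.28. Sms, spermine synthase, was at 11.7, 13.1, 15.4 and 17.8 CPM in TGF-beta-treated Cre cells and at 8.49, 7.72, 11.3 and 13.9 CPM in Cre cells. Sms was at 12.3, 10.0, 11.3 and 18.9 CPM in TGF-beta-treated GFP cells, against 9.47, 5.65, 10.2 and 13.9 CPM in GFP cells. These groups overlapped, yet Sms was higher with TGF-beta in 4 of 4 preparations under each virus. Its log2 difference was 0.49 ± 0.27 in Cre cells and 0.42 ± 0.27 in GFP cells, and 0.52 ± 0.13 and 0.44 ± 0.13 with the preparation as a block in the model, which compares libraries within preparations. A processed pseudogene, Sms-ps, had 65 counts in all 16 libraries together.

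Sat1, the spermidine/spermine acetyltransferase that starts polyamine breakdown and export, was at 331, 456, 257 and 198 CPM in preparations 1 to 4 of TGF-beta-treated Cre cells and at 98.4, 114, 108 and 111 CPM in Cre cells. Sat1 was at 318, 414, 284 and 159.6 CPM in TGF-beta-treated GFP cells, against 90.3, 108, 93.9 and 97.1 CPM in GFP cells. Without TGF-beta the preparations were close together, and with it they spread, with preparation 2 the highest and preparation 4 the lowest under both viruses. The log2 difference was 1.53 ± 0.26 in Cre cells and 1.59 ± 0.26 in GFP cells, the largest of the 8 tested genes after Arg1. Within preparation 4 it was 0.84 and 0.72, against 1.26 to 2.00 and 1.59 to 1.94 in the other 3.

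Counted over the 8 tested genes, 6 were called higher and 1 lower with TGF-beta in each virus group, and Sms was not called. Without preparation 1, 4 were called in either group, and without preparation 2 or 3 the count was 4 in Cre cells and 5 in GFP cells. Over all 15285 genes tested, 30.3% were called in Cre cells (14.0% higher, 16.3% lower) and 29.1% in GFP cells (13.8% higher, 15.3% lower); since the TGF-beta difference was known when the genes were picked, nothing is read from these counts. With the preparation as a block 7 were called higher and 1 lower under each virus, Sms included, where 52.5% of all genes were called in Cre cells (25.2% higher, 27.3% lower) and 49.1% in GFP cells (22.6% higher, 26.5% lower). DESeq2 called 7 of the 8 it tested under each virus. Among the genes to which it gave an adjusted p, it called 28.8% of 18346 in Cre cells and 26.5% of 18884 in GFP cells. The median log2 difference of the 8 genes was 0.99 in Cre cells and 1.10 in GFP cells, and that of all genes 0.02 and -0.02. The synthesis gene Odc1 and the breakdown gene Sat1 were thus both higher with TGF-beta in 4 of 4 preparations.

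**Figure D2:**
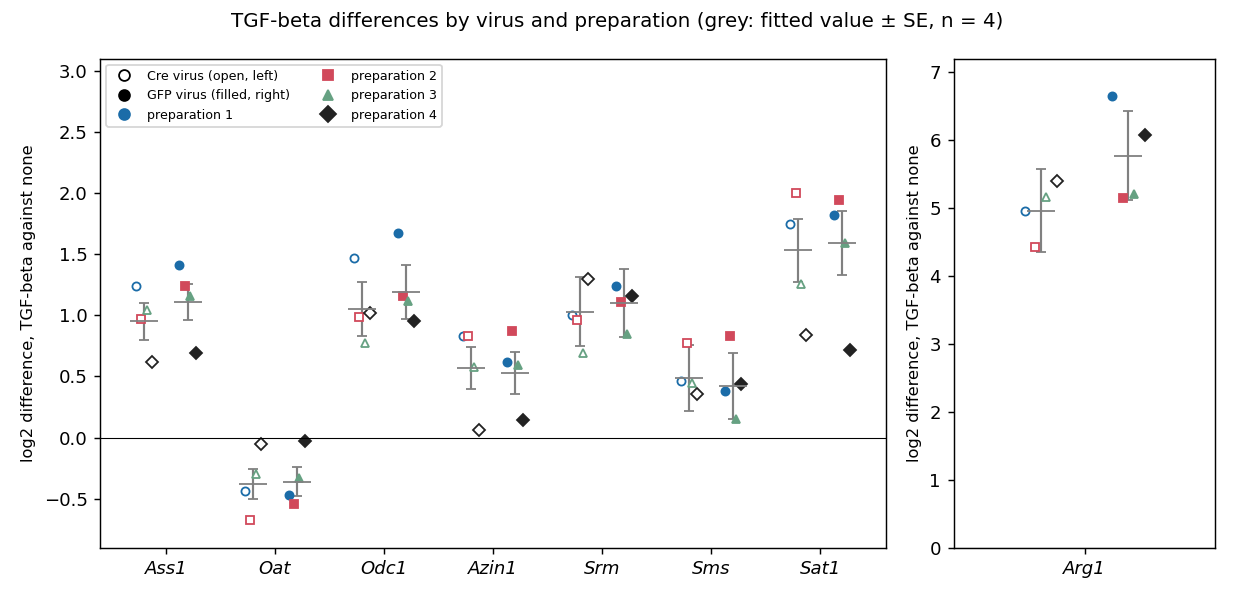
Log2 difference with against without TGF-beta (y axis) for the 8 tested genes (x axis; Arg1 has its own panel and scale), under the Cre virus (open symbols, left) and the GFP virus (filled symbols, right), with 1 symbol per preparation and the fitted value ± SE in grey (n = 4 libraries a group). Oat is the only one of the 8 below 0, and preparation 4 (diamonds) is nearest to 0 for Ass1, Oat, Azin1 and Sat1.

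Levels between genes were compared per kb of exon, with lengths from GENCODE M21. The lengths joined all exons of a gene, and the order of genes depends on that choice. By the longest transcript, Odc1 would stand above Oat in both groups with TGF-beta. Arg1 would then stand above Azin1 in TGF-beta-treated GFP cells but not in TGF-beta-treated Cre cells. In GFP cells the order of mean level was Ass1 (168 ± 32.6 CPM per kb, SD, n = 4), Oat (100.1 ± 14.7), Sat1 (35.1 ± 2.73), Odc1 (30.3 ± 8.86), Srm (23.5 ± 6.87), Azin1 (8.79 ± 2.01), Sms (1.63 ± 0.565), Arg1 (0.218 ± 0.129) and Arg2 (0.0152 ± 0.0180). The ranges of neighbours overlapped for Sat1 and Odc1 and for Odc1 and Srm. In TGF-beta-treated GFP cells the order was Ass1 (362 ± 18.0 CPM per kb), Sat1 (106 ± 37.9), Oat (78.2 ± 1.34), Odc1 (69.0 ± 8.51), Srm (50.1 ± 16.1), Azin1 (12.7 ± 0.784), Arg1 (11.8 ± 8.62), Sms (2.19 ± 0.656) and Arg2 (0.0111 ± 0.0131). There the ranges of neighbours overlapped from Sat1 through Oat and Odc1 to Srm, and for Azin1 and Arg1. With TGF-beta and joined exons the order was the same in Cre cells, where Ass1 was at 350.4 CPM per kb and Arg1 at 9.85 CPM per kb on average. Arg1 thus stood below Sms in Cre cells and GFP cells and above it in both groups with TGF-beta.

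The Cre comparison asked whether these genes differed with the virus meant to delete Has2. None of the 8 tested genes did in either medium by edgeR's quasi-likelihood test, with 0 at an unadjusted p under 0.05, where 0% of all 15285 genes were called in each medium (268 at an unadjusted p under 0.05 with TGF-beta, 169 without). With the preparation as a block 0 of the 8 passed too, and 0.0654% of all genes were called with TGF-beta and 0.170% without (0.164% higher, 0.00654% lower). In that fit 0 of the 8 were at an unadjusted p under 0.05 in either medium. Over all genes 2039 were with TGF-beta and 882 without. DESeq2 called 0 of the 9 genes in either medium, where it called 0% of the 29104 genes it tested with TGF-beta and 0.00687% without. With TGF-beta, Arg1 differed by -0.26 ± 0.49 on the log2 scale (adjusted p = 0.9996) and the Cre library had the lower Arg1 level in each of the 4 preparations, by 0.07 to 0.36. Its interval in the fit with the block ran from -0.52 to 0.07. Arg1 was picked with its difference between the GFP groups known, and these groups are the reference here. The p-values, intervals and directions of Arg1 in both media are therefore a description and not a test. Without TGF-beta, Arg1 differed by 0.55 ± 0.68 (adjusted p = 0.9997) and was higher in the Cre library in 3 of 4 preparations, with an interval from -0.09 to 1.11 in the fit with the block.

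In the fit with the block and TGF-beta, the 95% interval of Cre against GFP ran from -0.22 to 0.24 for Odc1, from -0.29 to 0.12 for Oat, from -0.28 to 0.18 for Ass1 and from -0.23 to 0.14 for Srm. It ran from -0.11 to 0.44 for Sms, from -0.33 to 0.49 for Sat1 and from -0.36 to 0.21 for Azin1. Without TGF-beta, Odc1 (log2 difference 0.16 ± 0.22), Ass1 (0.11 ± 0.14) and Sat1 (0.15 ± 0.25) were each higher in the Cre library in 4 of 4 preparations, and Oat (-0.06 ± 0.12) had the lower level there in 4 of 4. Their intervals in the fit with the block all held 0, the nearest to leaving it being that of Odc1 (-0.06 to 0.40). Averaged over both media, 0 of the 8 genes passed in either fit, where 0% of all genes were called without the block and 0.785% with it (0.654% higher, 0.131% lower). DESeq2 called 0 of the 9, against 0.00344% of the 29104 genes it tested. The averaged differences in the fit with the block lay between -0.10 for Azin1 and 0.14 for Arg1, and the interval of Srm, the narrowest, ran from -0.13 to 0.13.

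**Figure D3:**
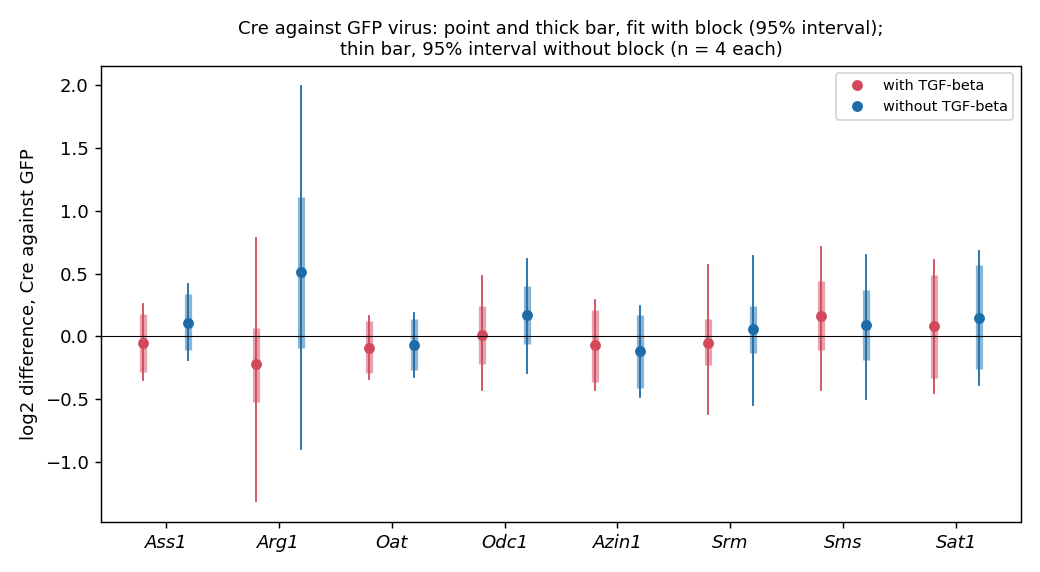
Log2 difference of Cre against GFP virus (y axis) for the 8 tested genes (x axis), with TGF-beta in red and without it in blue (n = 4 libraries a group); points and thick bars give the model with a preparation block and its 95% interval, thin bars the interval without the block. All 16 intervals of each fit include 0, and those of Arg1 without TGF-beta are the widest.

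The difference between the TGF-beta responses, Cre minus GFP, was tested as an interaction. None of the 8 genes passed, with 0 at an unadjusted p under 0.05 without the block and 1 with it, and 0% of all genes were called in either fit; DESeq2 called 0 of the 9. The gene at an unadjusted p under 0.05 was Arg1, whose response was smaller under the Cre virus by 0.73 on the log2 scale in the fit with the block (95% interval -1.40 to -0.07, unadjusted p = 0.0326, adjusted p = 1.0000 by edgeR's quasi-likelihood test). The difference without the block was -0.81 ± 0.84. The large Arg1 response in GFP cells, which enters this difference, was known when Arg1 was picked. The interval and p-values of Arg1 are therefore a description and not a test. Its GFP libraries without TGF-beta held only 4 to 17 counts. For the other 7 genes the difference lay between -0.16 (Odc1 and Ass1) and 0.07 (Sms) in the fit with the block.

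The 5 genes with the pattern most like that of Arg1 were Crabp2, Acta1, Ctsw, Lef1 and Lhx4. Likeness was the root mean square difference of log2(CPM + 0.1) over the 16 libraries, each gene centred on its own mean. It was 0.599 for Crabp2, a carrier of retinoic acid, 0.638 for Acta1, skeletal muscle actin, 0.653 for the cathepsin Ctsw, 0.715 for Lef1, a transcription factor of the Wnt pathway, and 0.755 for the homeobox gene Lhx4, against a median of 2.66 over 15284 genes. Acta1 was at 9.55 ± 3.48 CPM in TGF-beta-treated Cre cells and 0.282 ± 0.131 CPM in Cre cells (SD, n = 4), and at 6.99 ± 1.29 CPM in TGF-beta-treated GFP cells and 0.248 ± 0.162 CPM in GFP cells. The libraries share their preparations, and the measure is driven by the gap between libraries with and without TGF-beta.

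The wider pathway was read from 44 other genes in 4 lists, of which 38 were tested. The lists were also chosen with earlier results of these libraries known. Their calls and p-values with TGF-beta are therefore a description and not an independent test of the pathway. The shares over all genes given in this paragraph also stand beside the counts of the single lists below. With TGF-beta 16 of the 38 rose and 4 fell in Cre cells, and 14 rose and 3 fell in GFP cells (edgeR's quasi-likelihood test over all genes, adjusted p under 0.05). Over all genes 14.0% were called higher and 16.3% lower in Cre cells, and 13.8% and 15.3% in GFP cells. The median log2 difference of the 38 was 0.16 in Cre cells and 0.09 in GFP cells. With the block 18 rose and 11 fell in Cre cells, where 52.5% of all genes were called, and 14 rose and 7 fell in GFP cells, where 49.1% were. Calls in either direction, 20 and 17 without the block, numbered 11 and 11 without preparation 1 and 12 and 11 without preparation 3. Genes that bring arginine in went both ways. The transporter Slc7a1 rose by 1.21 ± 0.24 on the log2 scale in Cre cells (adjusted p = 0.00151) and 1.36 ± 0.24 in GFP cells (adjusted p = 0.000668), and Slc3a2, the shared heavy chain of several amino acid exchangers, by 0.75 ± 0.14 and 0.84 ± 0.14. Another arginine transporter, Slc7a2, fell to 18.9 ± 6.38 CPM in TGF-beta-treated Cre cells, against 49.4 ± 5.36 CPM in Cre cells. It fell to 21.3 ± 5.76 CPM in TGF-beta-treated GFP cells, against 59.6 ± 5.78 CPM in GFP cells.

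Of the creatine enzymes, the first of which draws on arginine, Gatm rose by 1.17 ± 0.33 in Cre cells and 1.14 ± 0.33 in GFP cells, whereas Gamt fell by 1.22 and 1.44 on the log2 scale (SE 0.21 and 0.22). In this list of 16 genes 11 were tested, of which 4 rose and 3 fell in Cre cells and 4 rose and 2 fell in GFP cells. With the block, 4 rose and 5 fell in Cre cells, and 4 rose and 4 fell in GFP cells. Asl, which follows Ass1 in arginine synthesis, rose by 0.39 ± 0.14 and 0.42 ± 0.14. Gatm and Asl were chosen for mention after their values were seen. The urea cycle genes Cps1 and Otc were not tested, with at most 4 counts in any library. The inducible nitric oxide synthase Nos2, which like Nos1 and Nos3 competes with arginase for arginine, held only 3 to 17 counts per library. Nos2 was at 0.192 ± 0.0493 CPM in TGF-beta-treated Cre cells and 0.336 ± 0.112 CPM in Cre cells. It was at 0.266 ± 0.0885 CPM in TGF-beta-treated GFP cells and 0.358 ± 0.178 CPM in GFP cells, and did not pass. Nos1 and Nos3 had the higher mean CPM in every group. Without the block Nos1 did not pass under either virus. Nos3 was called lower in Cre cells (-1.11 ± 0.41, adjusted p = 0.0499 by edgeR's quasi-likelihood test) and did not pass in GFP cells (-0.45 ± 0.42). With the block Nos1 was called lower under both viruses by the same test. Its difference in that fit was -0.64 ± 0.26 in Cre cells and -0.84 ± 0.26 in GFP cells. Nos3 was again called lower in Cre cells only. These synthases were chosen for mention after their values were seen.

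In the proline and glutamate branch 3 of 9 tested genes rose and 1 fell under each virus. With the block, 5 rose and 2 fell in Cre cells, and 3 rose and 1 fell in GFP cells. Pycr1, the last step of proline synthesis, rose by 1.06 ± 0.16 in Cre cells (adjusted p = 0.000157) and 1.07 ± 0.16 in GFP cells (adjusted p = 0.000153). Aldh18a1, which makes the same intermediate from glutamate that Oat makes from ornithine, rose by 0.67 ± 0.14 and 0.85 ± 0.14. Glul, glutamine synthetase, fell by 1.00 in Cre cells and 0.90 in GFP cells on the log2 scale (SE 0.13 each). The entry from glutamate was thus higher with TGF-beta while Oat, the entry from ornithine, was lower in level.

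In the polyamine list 6 of 14 tested genes rose in Cre cells, 4 of 14 rose in GFP cells, and 0 fell. With the block, 6 rose and 4 fell in Cre cells, and 4 rose and 2 fell in GFP cells. Azin2, another antizyme inhibitor, was counted in the arginine list. Azin2 was lower with TGF-beta in each preparation under both viruses. Its log2 difference with the block was -0.46 ± 0.09 in Cre cells and -0.42 ± 0.09 in GFP cells. It passed with the block but not without it, and was chosen for mention after its values were seen. Amd1, which makes the aminopropyl donor that Srm and Sms use, rose by 0.92 ± 0.22 in Cre cells and 0.88 ± 0.23 in GFP cells. Mtap, which salvages the by-product of those steps, rose by 0.84 ± 0.22 and 0.91 ± 0.22, Mat2a, which makes S-adenosylmethionine, by 0.44 ± 0.14 and 0.50 ± 0.14, and Myc, a transcription factor known to act on Odc1, by 1.59 ± 0.27 and 1.66 ± 0.27. The antizyme gene Oaz1 did not pass, at 314 ± 61.4 CPM in TGF-beta-treated Cre cells and 355 ± 22.6 CPM in Cre cells, and at 297 ± 21.7 CPM in TGF-beta-treated GFP cells and 333 ± 32.5 CPM in GFP cells. Neither did the spermine oxidase Smox, at 23.2 ± 9.42 CPM in TGF-beta-treated Cre cells and 23.6 ± 4.10 CPM in Cre cells, and at 21.7 ± 6.87 CPM in TGF-beta-treated GFP cells and 23.2 ± 2.14 CPM in GFP cells. Oaz1 and Smox were named after their values were seen. Spermidine also supplies the hypusine residue of the translation factor eIF5A, and here 3 of 4 tested genes rose under each virus: Eif5a by 0.62 ± 0.19 in Cre cells and 0.69 ± 0.19 in GFP cells, and the modifying enzymes Dhps by 0.69 ± 0.13 and 0.71 ± 0.13 and Dohh by 0.76 ± 0.16 and 0.85 ± 0.16.

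**Figure D4:**
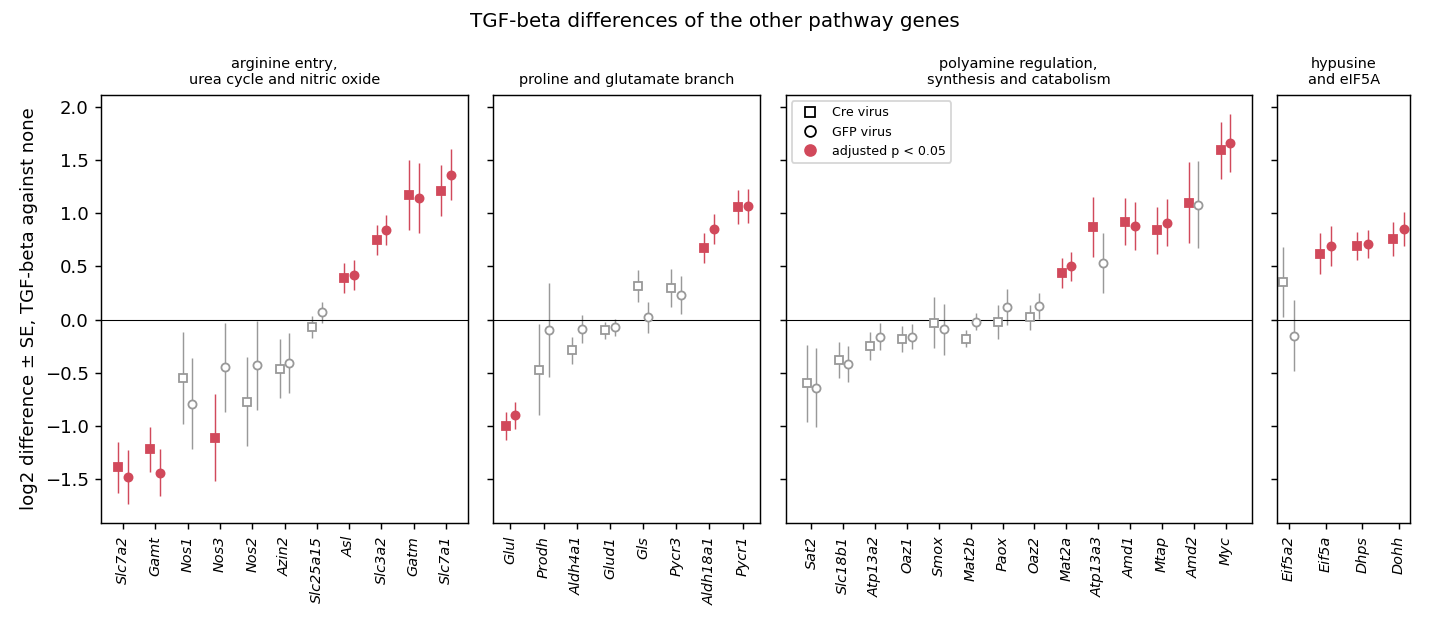
Log2 difference ± SE with against without TGF-beta (y axis) for the tested genes of the 4 wider lists, without 1 that is not reported here (x axis, 1 panel per list), under the Cre virus (squares, left) and the GFP virus (circles, right), n = 4 libraries a group. Filled red symbols passed the test over all genes; Myc is the highest under both viruses (1.59 in Cre cells, 1.66 in GFP cells) and Slc7a2 the lowest (-1.39 and -1.48).

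Cre against GFP called 0 of these 38 genes in either medium or on average, with and without the block. Dohh, chosen for mention after its values were seen, was higher in the Cre library in 4 of 4 preparations in both media. Its averaged log2 difference was 0.31 ± 0.07 in the fit with the block (adjusted p = 0.0605 by edgeR's quasi-likelihood test).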

How the data were processed

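Values for the 16 libraries were whole-number read counts per gene, deposited by the authors in 1 table without normalization. HTSeq 0.10.0, FastQC 0.10.1 and build mm39 (GRCm39) are named, per the submitters' processing notes. Aligner, annotation and strand handling: not given in the sources used here. Symbols came from GENCODE M21 (GRCm38), which matched 52081 of 55414 identifiers (Pycr3 under its older symbol), and exon lengths from the same release. Genes were kept with filterByExpr (minimum count 10, minimum total 15), which left 15285 genes with 99.94% of counts. The test was edgeR 4.0.16's quasi-likelihood F test (R 4.3.3, limma 3.58.1) with TMM factors (0.908 to 1.12), robust estimation, a prior count of 0.125, 1 mean per group and Benjamini-Hochberg adjustment over all genes, called at 0.05; it was tested on simulated data. Whether replicates came from separate animals or pools is not stated, so p-values cover only the spread over these 4 preparations, which may be technical.

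Same-numbered libraries share a preparation code and sex in their names, and their deviations from group means correlated in all 24 pairs (r 0.323 to 0.838), against -0.679 to 0.292 in 72 other pairs; the preparation was therefore also fitted as a block. Alternatives were DESeq2 1.42.0, RLE factors, other filters, only the libraries compared, and leaving out libraries or preparations. The 9 genes and all lists were chosen with earlier results of these data known. Named genes were the 9, up to 4 called genes with the smallest adjusted p per wider list, any wider-list gene called in a Cre comparison, and the 5 most like Arg1; 1 gene of the wider lists is counted but not reported here. Counting error alone limits genes with few counts. Promoters came from RefSeq (GRCm38.p6); coordinates were not mixed with the counts' build.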

Additional observations from a re-analysis of the deposited data

Results flagged for a closer look

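Of 32 groups of 4 libraries checked (8 genes in 4 groups), 2 held a library far from the other 3 of its group, by a rule that chance meets in about 1 of 20 groups. Both were Srm in preparation 4, at 127 CPM in TGF-beta-treated Cre cells, where the others were at 60.7 to 65.0 CPM, and at 119 CPM in TGF-beta-treated GFP cells, where the others were at 66.4 to 67.8 CPM. The gap to the nearest library was 0.936 and 0.972 of the group's whole range. Without TGF-beta preparation 4 was also the highest for Srm, at 51.5 CPM in Cre cells and 53.0 CPM in GFP cells. In preparation 4 the macrophage markers summed to 1021 and 936 CPM in those 2 TGF-beta groups, and their part in the Srm level was not tested.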

How the results depend on the processing

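Counts of the 9 genes called stayed at 0 in every Cre comparison and in the difference of responses under all alternatives run. With TGF-beta, 7 were called in each virus group, and 6 to 8 with DESeq2, RLE factors, other filters, only the libraries compared or the replicate block. Leaving out 1 library gave 5 to 7 under each virus. Leaving out 1 preparation gave 4 to 8 in Cre cells and 4 to 7 in GFP cells without the block, and 7 to 8 in both with it; the count was 4 without preparation 1, 2 or 3 in Cre cells and without preparation 1 in GFP cells, and the calls lost under any alternative were those of Oat, Azin1 and Srm. Oat was not called with no filter, at -0.38 in Cre cells and -0.36 in GFP cells. The wider lists, with 20 called in Cre cells and 17 in GFP cells, gave 11 to 23 and 11 to 21 without 1 preparation (14 to 19 and 15 to 17 without 1 library), and 23 to 30 and 20 to 25 with the block; without preparation 1 they gave 11 in both, and without preparation 3 they gave 12 in Cre cells and 11 in GFP cells. In the averaged Cre comparison they gave 0 to 1 called without 1 preparation, the 1 being Dohh without preparation 4 in the fit with the block. Fewer samples are tested when a preparation is left out; other causes were not tested. The replicate block moved the member calls from 7 to 8 (Sms) and changed no other call of the 9 genes. The summed arginase difference of TGF-beta-treated Cre cells minus TGF-beta-treated GFP cells, -1.88 CPM per kb, ran from -5.04 to 2.36 when 1 library was left out, turning to 2.36 without GFP with TGF-beta replicate 4; without TGF-beta it ran from 0.0214 to 0.132. Uncalled differences between the viruses changed sign in 14 of 176 values with TGF-beta and 11 of 176 without. No single member's called difference changed sign under any alternative. Depth limits Arg2 in all groups and Arg1 without TGF-beta.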
